A study of Mus musculus with 8 samples.

Results

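The spiral ligament fibrocyte genes described here are 6 of the 21895 genes in the deposited table, namely Coch, Otos, Otor, Pou3f4, Tbx18 and Crym. They were chosen by gene symbol, with earlier results of these data known, as were the gene lists set beside them. Cochlear RNA of mice with miR-29a (miR-29a WT) or without it (miR-29a KO) was sequenced in 4 libraries per genotype, numbered WT1 to WT4 for the former and KO1 to KO4 for the latter. The KO mice lack miR-29a on both alleles (miR-29a-/-), whereas WT mice carry the intact locus (miR-29a+/+), and both came from heterozygous breeding on a C57BL/6 background. Both sexes were used in the study. The series record gives an age of 21 days, whereas the methods of the study give 2 months, and the age entered no comparison. Each library was made from whole cochlea, so that fewer cells of a type and less RNA per cell cannot be told apart. The labels do not say how many animals gave one library, and p-values measure only the spread between these libraries.

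The spiral ligament is the connective tissue that holds the stria vascularis and the basilar membrane to the outer wall of the cochlea. Its fibrocytes lay down matrix and carry potassium from the hair cell side back towards the stria. Cochlin (Coch) and otospiralin (Otos) are secreted proteins of these fibrocytes, and otoraplin (Otor) is a small secreted protein of the MIA family expressed in the cochlea. Pou3f4 and Tbx18 encode transcription factors of the otic mesenchyme that gives rise to the fibrocytes. Crym encodes mu-crystallin, a cytosolic protein that binds thyroid hormone. Mutations of COCH, POU3F4 and CRYM are known causes of inherited deafness in humans.

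The mature sequences of the miR-29 family are shown because the deleted miRNA shares its seed, bases 2 to 8 and in capitals here, with relatives that are encoded elsewhere or close by. They are RefSeq sequences on GRCm38.p6, 5′ to 3′.
mmu-miR-29a-3p: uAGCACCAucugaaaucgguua
mmu-miR-29b-3p: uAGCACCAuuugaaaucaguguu
mmu-miR-29c-3p: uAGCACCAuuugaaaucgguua
Mir29a lies on the minus strand of chromosome 6, with miR-29a-3p from 31062673 to 31062694, and 1 of the copies of miR-29b-3p lies close to it, from 31063025 to 31063047. The genotypes are taken from the labels, as the miRNAs themselves were not analysed here.

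The sequence TGGTGCT, which pairs with that seed, was searched on the sense strand in the longest annotated 3′-UTR of each gene. It is present in 2751 of 20958 genes (13.1%). Among the 6 fibrocyte genes it occurs once, in Tbx18, whose 3′-UTR is 2421 bases long and holds it at positions 1369 to 1375, on the minus strand of chromosome 9 from 87703846 to 87703852 of GRCm38. The bases around it are printed with the match in capitals.
Tbx18 site: tctcgcctttaTGGTGCTagtgctgcaag
The 3′-UTRs of Coch (739 bases), Otos (115 bases), Otor (535 bases), Pou3f4 (1657 bases) and Crym (254 bases) do not contain these 7 letters. A match is a description of the letters and was not tested as a site.

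The 8 libraries did not resemble one another equally. Across 14990 genes, which are not independent replicates, the median Pearson's correlation of WT1 with the other WT libraries was 0.819, whereas this value was 0.915 to 0.954 for the other 7 libraries with their own group. With the libraries of the other genotype, the median was 0.895 for WT1 and 0.841 for WT3, the lowest of the 8, so that leaving out WT1 removes a WT library that was closer to KO than to WT and keeps the one least like KO. Values without WT1 are therefore given beside those of all 8 libraries for each of the 6 genes. Low values step with single fragments, and the steps gave an estimated depth of 21600000 to 26700000 fragments per library. All 6 genes passed the low-value filter, a mean of 0.5 FPKM or more. Sequence shared with other genes was small, with 0 of the 50-base words of Coch, Otos, Otor and Crym, 0.382% of those of Pou3f4 and 0.108% of those of Tbx18 found in another gene.

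Cochlin mRNA was among the most abundant mRNAs of the cochlea in every library, with overlapping levels in the genotypes. Coch (ENSMUSG00000020953, chromosome 12 from 51593341 to 51605771, plus strand) had an FPKM of 1565, 1308, 1927 and 1231 in WT1 to WT4. In KO1 to KO4 its FPKM was 1433, 1841, 1716 and 1694. It ranked between place 4 and place 14 of all 21895 genes and made up 0.489% to 0.764% of the total FPKM. The WT mean was 1508 ± 314 and the KO mean 1671 ± 171 (SD, n = 4 each). The groups overlapped, with the highest and the lowest value both in WT libraries. The limma log2 fold change, KO minus WT, was 0.16 (standard error 0.38, 95% confidence interval -0.70 to 1.03, unadjusted p = 0.677, adjusted p = 0.983). Without WT1 it was 0.19. No difference was detectable for Coch, and the interval still includes changes of up to 1.03 on the log2 scale. That bound depends on how the spread was modelled, and was 0.58 in limma without the mean-variance trend and 1.87 without the filter on low values.

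Otospiralin mRNA varied widely between the KO libraries. Otos (ENSMUSG00000044055, chromosome 1, minus strand) had an FPKM of 35.7, 23.7, 36.5 and 21.9 in WT1 to WT4. Its FPKM in KO1 to KO4 was 18.1, 57.3, 24.2 and 48.3. KO2 and KO4 lay above every WT library and KO1 lay below every WT library, so that the KO values enclosed those of WT. The coefficient of variation was 50.8% in KO and 26.2% in WT, whereas for Coch it was 10.3% in KO and 20.8% in WT. The log2 fold change of Otos was 0.21 (limma standard error 0.38, 95% confidence interval -0.65 to 1.07, adjusted p = 0.983). Without WT1 it was 0.32 and without KO1 it was 0.50. Without KO2 it was -0.05, the only fit with 1 library left out in which its sign turned. The span listed for Otos in the deposited table, 92624099 to 92649262, is longer than that of GENCODE M21 on GRCm38, 92644218 to 92648841, and contains Cops9 on the same strand. Cops9, a subunit of the COP9 signalosome, had an FPKM of 6.74 to 13.6. Which length was used for the FPKM of Otos is not given in the sources used here, and its level beside other genes is uncertain to that extent.

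Otoraplin mRNA had the largest log2 fold change among the 6 genes over all 8 libraries, though not without WT3 or without KO1, where that of Otos was larger. Otor (ENSMUSG00000027416, chromosome 2 from 143078473 to 143081713, plus strand) had an FPKM of 11.9, 26.5, 47.2 and 34.4 in WT1 to WT4. Its FPKM in KO1 to KO4 was 13.3, 19.4, 17.4 and 24.9. WT2, WT3 and WT4 were higher than each KO library, whereas WT1 was the lowest of all 8. The WT mean was 30.0 ± 14.8 and the KO mean 18.8 ± 4.82 (SD, n = 4 each). For Otor the log2 fold change was -0.54 (limma standard error 0.40, 95% confidence interval -1.45 to 0.36, unadjusted p = 0.205, adjusted p = 0.947). Without WT1 the groups did not overlap, and the log2 fold change was -0.93 (limma standard error 0.25, unadjusted p = 0.00538, adjusted p = 0.148), a level in KO of 0.524 times that in WT. Other single libraries moved the value the other way, to -0.27 without WT3 and to -0.39 without KO1.

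**Figure D1:**
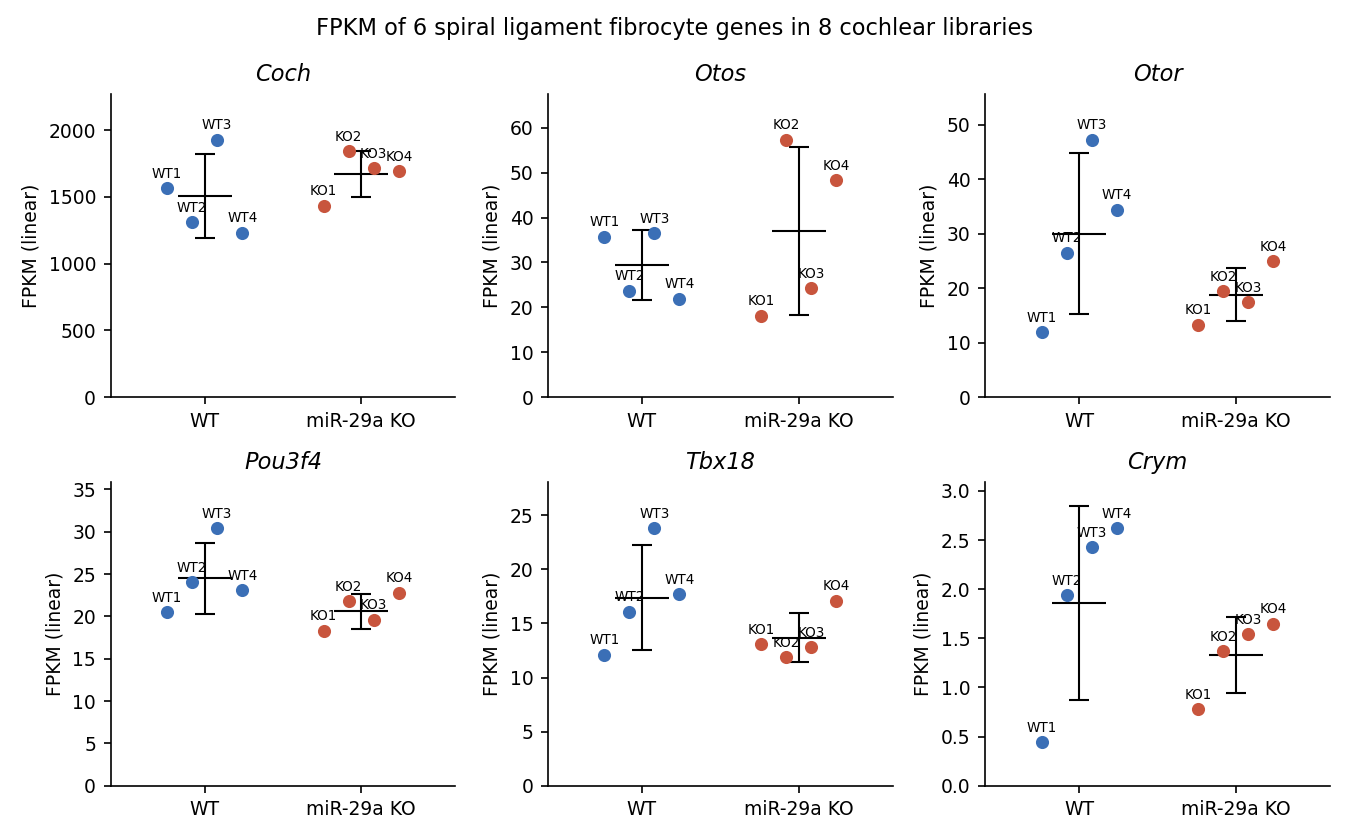
FPKM on a linear axis for each of the 6 genes, with 1 point per library (WT1 to WT4 in blue, KO1 to KO4 in red), the group mean as a horizontal bar and the SD as whiskers (n = 4). WT1 is the lowest WT library for Otor (11.9), Pou3f4 (20.5), Tbx18 (12.1) and Crym (0.445), but not for Coch (1565) or Otos (35.7).

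The transcription factor genes of the otic mesenchyme were expressed at moderate levels, and neither passed the test over the 8 libraries as deposited, whereas both passed after median-ratio scaling (limma unadjusted p = 0.0278 for Pou3f4 and 0.0467 for Tbx18). Pou3f4 (ENSMUSG00000056854, chromosome X from 110814280 to 110817207, plus strand) had an FPKM of 20.5, 24, 30.4 and 23.1 in WT1 to WT4. In KO1 to KO4 its FPKM was 18.3, 21.8, 19.6 and 22.8. WT2, WT3 and WT4 were above all KO libraries, and WT1 lay among them. Its log2 fold change was -0.24 (limma standard error 0.15, 95% confidence interval -0.59 to 0.11, unadjusted p = 0.153, adjusted p = 0.947). Without WT1 it was -0.32 (limma unadjusted p = 0.0473, adjusted p = 0.25), and the groups did not overlap. Without WT3 it was -0.13.

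Tbx18 (ENSMUSG00000032419, chromosome 9 from 87702800 to 87731260, minus strand), the gene with the TGGTGCT match, had an FPKM of 12.1, 16.1, 23.8 and 17.7 in WT1 to WT4. In KO1 to KO4 its FPKM was 13.1, 11.9, 12.8 and 17.1. KO1, KO2 and KO3 were below WT2, WT3 and WT4, whereas KO4 was within their range. The log2 fold change was -0.32 (limma standard error 0.22, 95% confidence interval -0.81 to 0.18, unadjusted p = 0.18, adjusted p = 0.947). Without WT1 it was -0.48 (limma unadjusted p = 0.0267, adjusted p = 0.202), and the groups still overlapped. Without WT3 it was -0.15. D030062O11Rik is annotated on the opposite strand of the Tbx18 span. The libraries were strand-specific, and whether strand was used in the FPKM is not given in the sources used here.

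Mu-crystallin mRNA was scarce and differed most between WT libraries. Crym (ENSMUSG00000030905, chromosome 7 from 120186380 to 120202111, minus strand) had an FPKM of 0.445, 1.94, 2.43 and 2.62 in WT1 to WT4. In KO1 to KO4 its FPKM was 0.778, 1.37, 1.54 and 1.65. WT1 was lowest and KO1 was next, while the other KO libraries lay close together and below the other WT libraries. Based on the estimated depth and a coding transcript of 1383 bases, Crym was covered by about 16 fragments in WT1 and at most about 78 in any library, which limits its precision. The log2 fold change was -0.26 (limma standard error 0.53, 95% confidence interval -1.46 to 0.93, unadjusted p = 0.632, adjusted p = 0.983). Without WT1 it was -0.80 (limma standard error 0.29, unadjusted p = 0.0228, adjusted p = 0.191), and the groups did not overlap. It was close to 0 when WT3 (-0.06), WT4 (-0.02) or KO1 (-0.04) was left out instead.

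In all 8 libraries together, 0 of the 6 genes passed limma's test at an unadjusted p under 0.05, the threshold of the study, whereas 767 of 14990 genes (5.12%) passed. Of all genes, 691 (4.61%) were higher and 76 (0.507%) were lower in KO, and 0 passed with Benjamini-Hochberg adjustment. The study used DESeq2 and states fewer libraries per group, so its own number of called genes is another one. The groups overlapped for each of the 6 genes and were separate for 3.5% of all genes, 3.02% higher and 0.487% lower in KO. The median log2 fold change over all tested genes was 0.10, so that the values of Coch and Otos lie close to the common shift and those of the other 4 genes lie below it. After median-ratio scaling, which moves that median to 0.00, Pou3f4 (-0.34) and Tbx18 (-0.42) passed the unadjusted threshold as lower in KO, with limma adjusted p = 0.895 for both. In that fit 5.1% of all genes passed, 2.69% higher and 2.41% lower in KO. After quantile normalization Pou3f4 alone passed (-0.33), where 6.17% of all genes did, 2.52% higher and 3.65% lower.

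Without WT1, 4 of the 6 genes (Otor, Pou3f4, Tbx18 and Crym) passed the unadjusted threshold and all 4 were lower in KO. In the same fit, 2922 of 15019 genes (19.5%) passed, 1112 of them (7.40%) lower in KO, and 0 of 15019 genes had a limma adjusted p under 0.05. The groups were separate for Otor, Pou3f4 and Crym, each lower in KO, against 18.3% of all genes, 11.1% higher and 7.17% lower. With median-ratio scaling as well as without WT1, the same 4 genes passed, beside 21.7% of all genes, 12.9% higher and 8.75% lower. Leaving out WT1 was planned for every library in turn, but the choice to print that fit beside each of the 6 genes was made after its values were seen. When KO1 was left out as well, Otor (-0.78, unadjusted p = 0.0131) and Crym (-0.58, unadjusted p = 0.0278) still passed in limma, beside 739 of 15022 genes (4.92%) lower in KO, whereas Pou3f4 (-0.26) and Tbx18 (-0.46) did not.

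**Figure D2:**
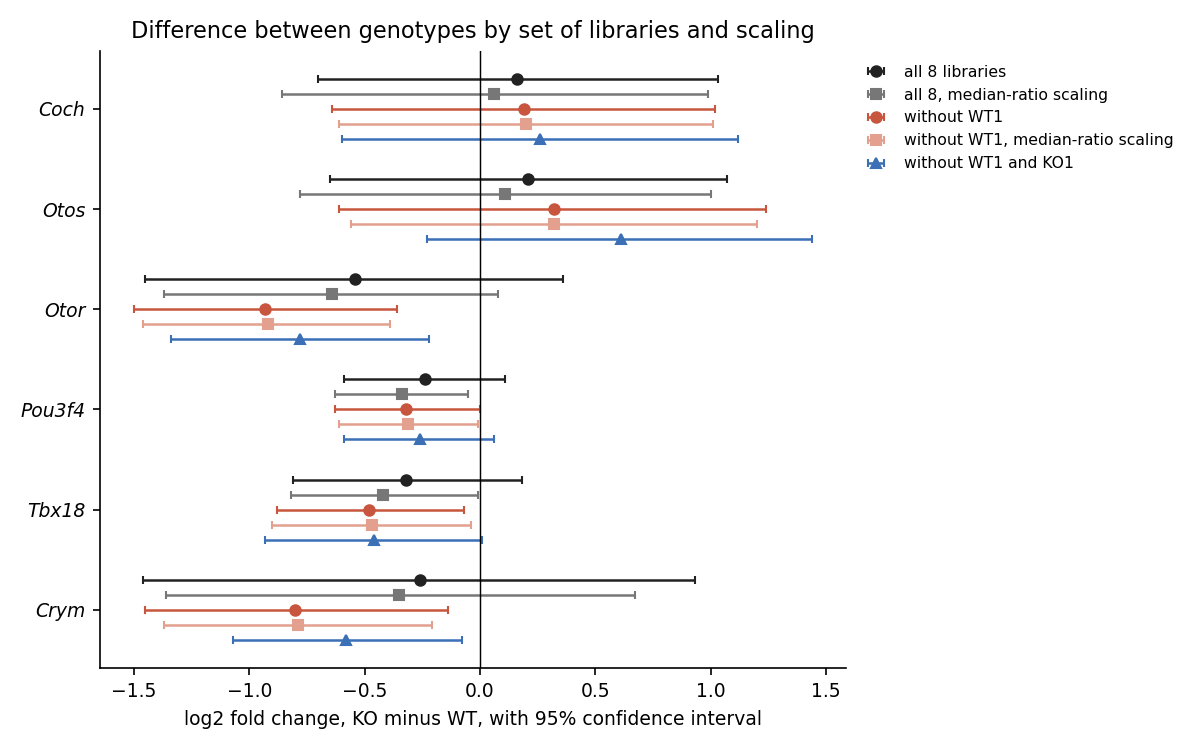
Log2 fold change of each gene, KO minus WT, with limma's 95% confidence interval, for all 8 libraries, for all 8 with median-ratio scaling, without WT1, without WT1 with median-ratio scaling, and without WT1 and KO1. Coch and Otos stay above 0 and Otor, Pou3f4, Tbx18 and Crym stay below 0 in each of the fits drawn (quantile normalization, with -0.00 for Coch, is not drawn), and the interval of Otor moves from -1.45 to 0.36 with all libraries to -1.50 to -0.36 without WT1.

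The order of the levels was steady only at its ends. FPKM are given per length of transcript, so levels of different genes can be set side by side, with the reserve on Otos stated above. Coch was the highest and Crym the lowest of the 6 genes in each of the 8 libraries. Otos, Otor, Pou3f4 and Tbx18, with means over the 8 libraries of 33.2, 24.4, 22.5 and 15.6 FPKM, changed places between libraries and their ranges overlapped. Otor was second after Coch in WT2, WT3 and WT4, and Otos or Pou3f4 was second in WT1 and the KO libraries.

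A ratio to Coch within a library does not depend on the scaling between libraries, and these ratios were described without a test. The log2 ratio of Otor to Coch was -7.04, -5.63, -5.35 and -5.16 in WT1 to WT4 and -6.75, -6.57, -6.62 and -6.09 in KO1 to KO4. For Pou3f4 this ratio was -6.25, -5.77, -5.99 and -5.74 in WT1 to WT4 and -6.29, -6.40, -6.46 and -6.22 in KO1 to KO4. For Otor all KO libraries were below WT2, WT3 and WT4 and above WT1, and for Pou3f4 only KO4 was above the lowest WT library, which was WT1. The mean log2 ratio to Coch was lower in KO by 0.71 for Otor, 0.40 for Pou3f4, 0.48 for Tbx18 and 0.42 for Crym, and without WT1 the groups were separate for each of these 4 genes. Without WT1, the ratio to Coch was separate for 14.2% of 15018 genes, and for 11.5% it was lower in KO. The ratio of Otos to Coch was -5.69 ± 0.16 for WT, against -5.65 ± 0.67 for KO (SD, n = 4 each), with the groups overlapping with and without WT1.

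**Figure D3:**
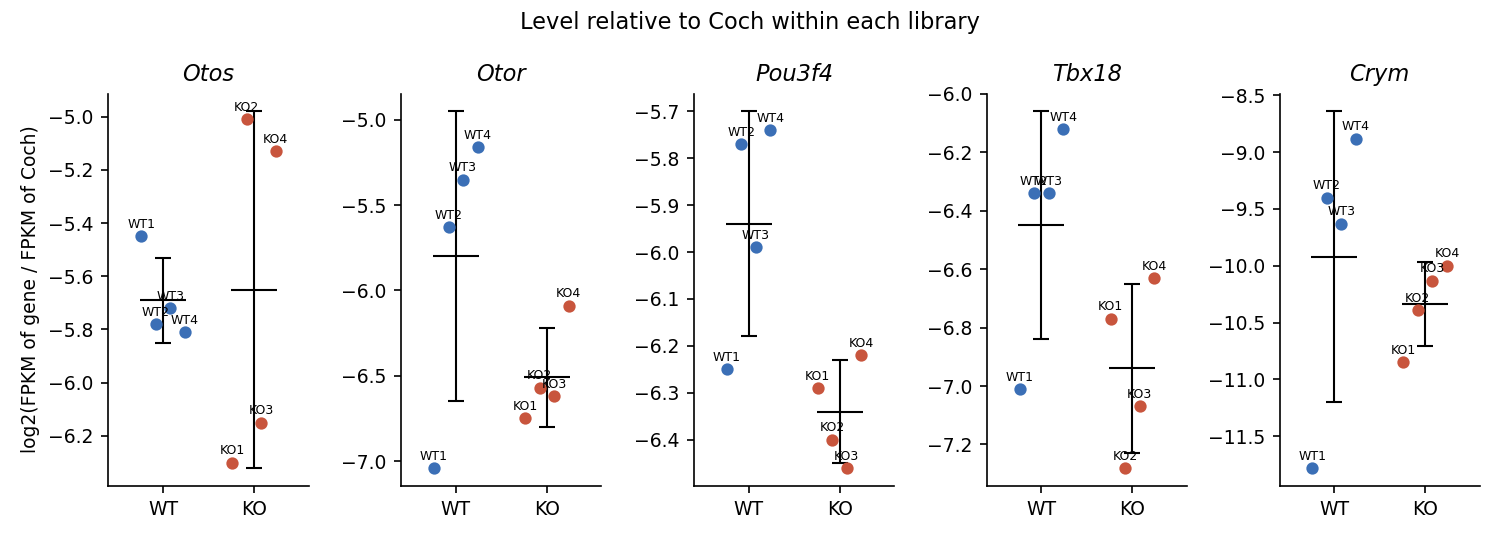
Log2 ratio of the FPKM of each gene to the FPKM of Coch in the same library, with 1 point per library, the group mean as a bar and the SD as whiskers (n = 4), on a separate vertical scale for each gene that does not start at 0. For Otor, WT2 to WT4 lie between -5.63 and -5.16, the KO libraries between -6.75 and -6.09, and WT1 at -7.04.

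Among the 15 pairs of these genes, Pou3f4 and Tbx18 had the steadiest ratio, a measure that also favours genes that vary little. The SD over the 8 libraries of their log2 ratio was 0.18, below the SD of either gene alone (0.22 for Pou3f4 and 0.34 for Tbx18). It was 0.33 for Otor and Crym, whose own SDs were 0.67 and 0.78. For Coch and Pou3f4 it was 0.28, the next smallest after Pou3f4 and Tbx18, but above the SD of either gene alone (0.23 and 0.22). For Coch and Otos, the secreted proteins by which the fibrocytes are best known, it was 0.45, and for Otos and Crym it was 0.99, the widest of the 15 pairs.

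Marker sums of other cells differed between the libraries, and Otor ran broadly the other way to the neutrophil sum. The summed FPKM of 7 neutrophil genes was 9387, 653, 51.3 and 889 in WT1 to WT4 and 3306, 2335, 4997 and 1635 in KO1 to KO4. When the libraries are ordered by this sum, Otor was 47.2, 26.5, 34.4, 24.9, 19.4, 13.3, 17.4 and 11.9 FPKM from the lowest sum to the highest. Otor was thus highest in WT3, which had the least neutrophil RNA, and lowest in WT1, which had the most. Coch, in the same order of libraries, was 1927, 1308, 1231, 1694, 1841, 1433, 1716 and 1565 FPKM and showed no such order. Otor was not alone, as Atp1b1 and Efnb2, genes of lists given below, were also highest in WT3 (518 and 22.7 FPKM) and lowest in WT1 (186 and 7.18). How many of all genes do so was not counted.

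The sums of the neutrophil, erythroid, and osteoblast and osteocyte lists were higher in each KO library than in WT2 to WT4. The erythroid sum (7 genes) ran from 449 to 3596 in WT2 to WT4 and from 4898 to 12086 in KO, and the osteoblast and osteocyte sum (8 genes) from 47.4 to 263 and from 278 to 478. Those of the 7 brain genes (174 to 193 against 85.2 to 143) and the 5 genes of stria intermediate cells (120.1 to 164 against 77.5 to 101) were lower in KO. With WT1 included, all of these sums overlapped between the genotypes, and WT1 had 7459 for the erythroid, 551 for the bone and 44.3 for the brain list. In limma over the 8 libraries, 0 of 7 neutrophil genes, 2 of 7 erythroid genes (Hbb-bt and Alas2) and 1 of 8 bone genes (Sost) passed the unadjusted threshold, each higher in KO, where 4.61% of all genes were. Without WT1, 7, 7 and 4 of them did, again all higher, beside 12.1% of all genes. Of the 6 brain genes and the 4 intermediate cell genes tested, 0 and 1 (Tyr, lower) passed over the 8 libraries, and 3 and 3 passed without WT1, all lower in KO, where 0.507% and 7.4% of all genes were lower. The brain genes that passed were Slc17a7, Gfap and Aqp4. The brain list was not uniform, as without WT1 Camk2a had a log2 fold change of 0.50, Cbln1 of -1.26 and Gabra6 of -1.81, with overlapping groups for each. Of these lists, only Neurod6 (brain) and Tyrp1 (stria) had a mean FPKM under 0.5, and no marker was at 0 in every library. In the general fibroblast list (7 genes), Col1a1 and Col1a2, which encode the chains of type I collagen, were higher in KO, with all KO libraries above all WT libraries, WT1 included, where 4.61% of all genes were called higher and 3.02% were separate and higher. The other 5 genes of the list were not called and overlapped, with log2 fold changes of 0.02 to 0.26. Those of Col1a1 and Col1a2 were 1.28 and 1.16 (limma unadjusted p = 0.0148 and 0.00299, adjusted p = 0.947 and 0.922). The sum of this list was 4306 to 5929.6 in WT and 5224 to 7118 in KO. Of the 6 skeletal muscle genes tested, 1 (Mylpf) was higher in KO, against the same 4.61% of all genes, and the sum of that list was 308 in KO3, 35.8 in KO4 and at most 9.1 in the other libraries. Of the 4 genes of stria marginal cells, 0 passed over the 8 libraries, all had a log2 fold change below 0, and 2 (Kcnq1 and Kcne1) were lower in KO without WT1. The neuron, myelinating Schwann cell, cartilage and vestibular otoconia sums were lowest in WT1 (346, 414, 58.9 and 1.51), and the hair cell sum in KO1 (25.9). Over the 8 libraries, 0 genes of these lists passed. Without WT1, 2 of 7 Schwann cell genes (Mbp and Mag), 2 of 4 cartilage genes (Acan and Col9a1) and 1 of 2 otoconia genes (Otol1) passed. All were lower in KO, as were 7.4% of all genes, and 0 hair cell and 0 neuron genes passed. The part of these cells in the levels of Otor, Pou3f4, Tbx18 and Crym was not tested.

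**Figure D4:**
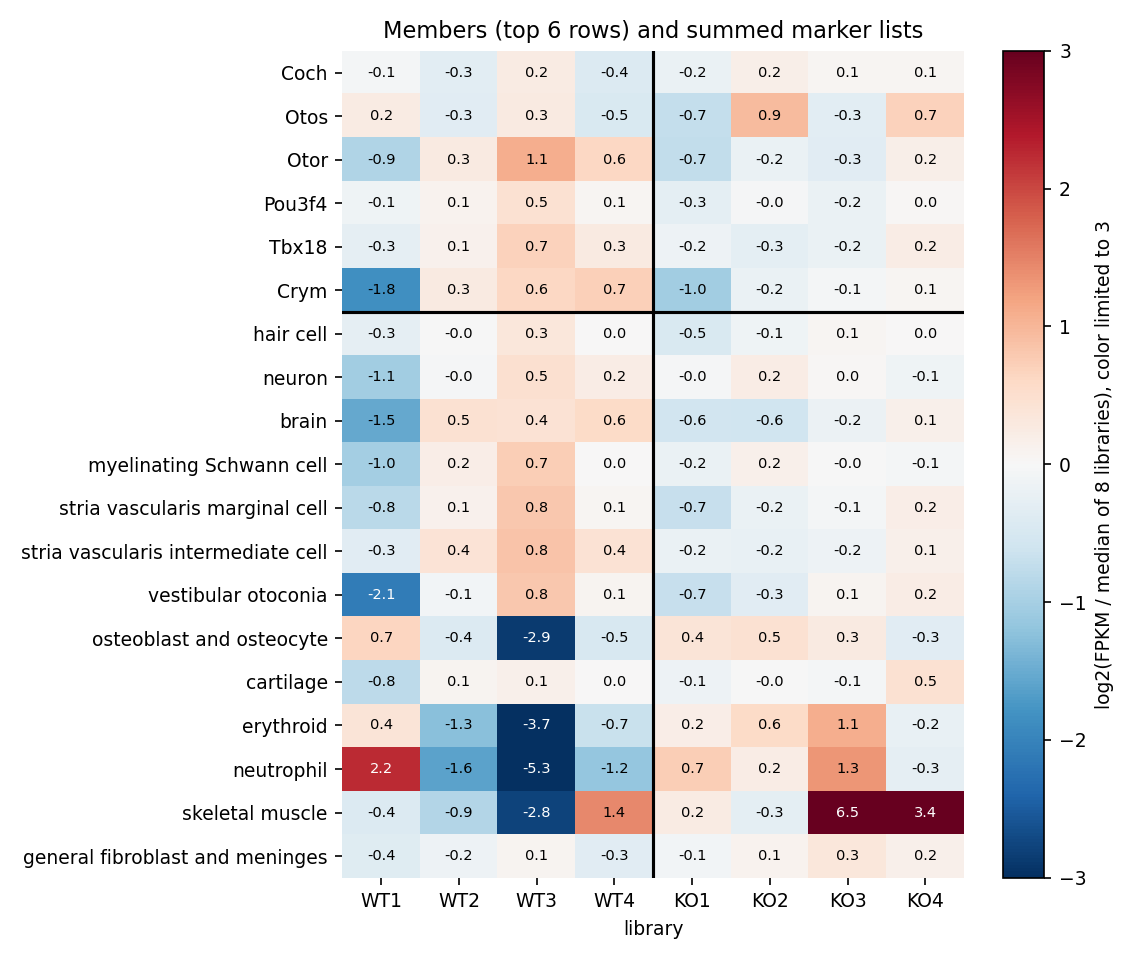
Log2 of the FPKM of each of the 6 genes (top rows) and of the summed FPKM of each of 13 marker lists (lower rows) over the median of the 8 libraries, with red above and blue below that median. The neutrophil row runs from -5.27 in WT3 to 2.24 in WT1, and the Otor row runs the other way, from 1.09 in WT3 to -0.90 in WT1.

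Among other genes of the spiral ligament and lateral wall, Aqp1 was higher in KO with and without WT1, and Kcnj16 was called only with WT1 included. Of 14 listed genes, 13 were tested, and 2 were higher and 0 were lower in KO at the unadjusted threshold of limma, where 4.61% and 0.507% of all genes were. Their median log2 fold change was -0.03, beside 0.10 over all genes, and without WT1 it was -0.20, beside -0.02. Aqp1, a water channel found in type III fibrocytes, had an FPKM of 36.4, 31.7, 22.8 and 37.1 in WT1 to WT4 and of 54.8, 68.4, 76.1 and 42.5 in KO1 to KO4. All KO libraries were above all WT libraries for Aqp1, with a log2 fold change of 0.91 (limma standard error 0.23, unadjusted p = 0.00361, adjusted p = 0.922). Aqp1 is also a gene of red blood cells, and the erythroid sums stand above. Kcnj16, a potassium channel subunit, had a log2 fold change of 1.12 (limma unadjusted p = 0.0412, adjusted p = 0.947), with WT3 (14.4 FPKM) above KO1 (12.9) and KO2 (12.3). Without WT1 it was 0.98 and did not pass (unadjusted p = 0.0824). Slc1a3, a glutamate transporter, had a log2 fold change of -0.42 (limma unadjusted p = 0.171), and without WT1 it was -0.61 and passed (unadjusted p = 0.0373). Atp1b1, a subunit of the sodium pump, had a log2 fold change of 0.05 (limma unadjusted p = 0.877), and of -0.23 without WT1. Its FPKM ran from 186 in WT1 to 518 in WT3, and all KO libraries lay between these values.

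Among regulators of the otic mesenchyme, the ephrin receptor gene Epha4 was lower in KO. Of 12 listed genes, 11 were tested, and 1, Epha4, passed the unadjusted threshold as lower in KO, beside 0.507% of all genes. The median log2 fold change of the list was 0.17, with 10 of 11 above 0, and -0.07 without WT1. Epha4 is known to act downstream of Pou3f4 in the otic mesenchyme. Its FPKM was 6.97, 8.28, 9 and 10.5 in WT1 to WT4 and 4.80, 5.31, 5.58 and 8.53 in KO1 to KO4, so that 3 KO libraries were below all WT libraries and KO4 was within their range. The log2 fold change was -0.53 (limma standard error 0.22, unadjusted p = 0.0363, adjusted p = 0.947), and it was -0.63 without WT1. Efnb2, which encodes an ephrin ligand, had a log2 fold change of 0.05, and of -0.31 without WT1 (limma unadjusted p = 0.0589). Those of the transcription factor genes Tbx15, Twist1 and Foxc1 were 0.58, 0.36 and 0.21, with limma unadjusted p = 0.132, 0.126 and 0.432, and without WT1 they were 0.63, 0.22 and -0.07.

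Since mu-crystallin binds thyroid hormone, genes of its transport, conversion and receptors were set beside Crym. Of 15 genes, 13 were tested, and 1 was higher and 1 was lower in KO in limma at the unadjusted threshold, beside 4.61% and 0.507% of all genes, with a median log2 fold change of 0.07, and of -0.15 without WT1. Thrb, which encodes the thyroid hormone receptor needed for hearing, had an FPKM of 8.76, 10.9, 9.19 and 9.43 in WT1 to WT4. In KO1 to KO4 its FPKM was 8.79, 5.29, 7.51 and 6.91, and KO1 alone reached the WT range. The log2 fold change of Thrb was -0.44 (limma standard error 0.18, unadjusted p = 0.0373, adjusted p = 0.947), and -0.48 without WT1. Slc16a10, a transporter of thyroid hormone and aromatic amino acids, had an FPKM of 2.65 to 9.46 in WT and 8.21 to 15.3 in KO, a log2 fold change of 0.98 (limma unadjusted p = 0.0312, adjusted p = 0.947), and 1.2 without WT1. Dio2, the enzyme that makes the active hormone, was at 5.99 to 11.5 FPKM in WT and 10.1 to 14.6 in KO (log2 fold change 0.34, limma unadjusted p = 0.184, and 0.45 without WT1). The corepressor gene Ncor1 had a log2 fold change of 0.07 (limma unadjusted p = 0.75), and of 0.26 without WT1.

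None of the sequence relatives of the 6 genes passed the test in either direction over the 8 libraries, with 11 of 14 tested and a median log2 fold change of 0.11, where 5.12% of all genes passed. The MIA family members Mia3 and Mia2 were at 34.7 to 46.5 and 22.3 to 32.9 FPKM, and their log2 fold changes were 0.01 and -0.08 (0.04 and 0.01 without WT1). Mia, another member of that family, which was added after its values were seen, had an FPKM of 1.68, 4.89, 13.5 and 11.9 in WT1 to WT4 and of 1.52, 4.81, 9.4 and 5.99 in KO1 to KO4. Its log2 fold change was -0.41 (limma unadjusted p = 0.589), and -1.01 without WT1 (unadjusted p = 0.126), with overlapping groups in both. Pou3f1, a relative of Pou3f4, had a log2 fold change of 0.31, and of -0.12 without WT1. Tbx1 and Tbx15, relatives of Tbx18, had log2 fold changes of 0.17 and 0.58, and of -0.05 and 0.63 without WT1. Without WT1, only Pou3f3 of these genes passed in limma (-0.35, unadjusted p = 0.0285), where 19.5% of all genes did, and it was named after its value was seen.

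The genes whose levels followed each of the 6 genes most closely were found among the 9853 genes whose mean reached 5 FPKM, by the smallest SD over the 8 libraries of the log2 ratio to that gene. For Otor these were Nr1d2, Lrfn5 and Sox8, with SDs of 0.113, 0.132 and 0.192, where Otor itself had an SD of 0.67 and the median over the 9853 genes was 0.634. For Crym they were Scg5 (0.107), Shisa4 (0.121) and Arxes2 (0.162), beside a median of 0.687. Coch was followed most closely by Cpne3, Il10rb and 1110012L19Rik (0.104 to 0.111), Pou3f4 by Zfp266, Mtmr10 and Hif1a (0.058 to 0.066) and Tbx18 by Ppip5k2, Myl6b and Nebl (0.106 to 0.117). For Otos the smallest values were 0.333 for Cant1, 0.342 for Zfp809 and 0.353 for Gpr146, beside an SD of Otos itself of 0.59 and a median of 0.658. The smallest SD of the ratio was thus larger for Otos than for each of the other 5 genes. This measure also favours genes that vary little. Coch, Pou3f4 and Tbx18 had SDs of 0.23, 0.22 and 0.34 themselves, and medians over all candidates of 0.381, 0.356 and 0.424. These values describe 8 libraries of differing make-up, and no test was made of them.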

How the data were processed

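Total RNA of whole cochlea was sequenced in 8 strand-specific libraries after removal of ribosomal RNA, and the labels name RNase R, which degrades linear RNA, at the fragmentation step. The authors mapped paired-end reads with Hisat2 (v2.0.4) and deposited FPKM per gene and library (fragments scaled to transcript length and to the mapped fragments of the library). The tool and annotation behind the FPKM are not given in the sources used here. The submitters' processing notes name mm9, whereas 19771 of 21760 matched genes have the coordinates of GENCODE M21 on GRCm38. No per-sample column was left unused (0).

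The members and gene lists were chosen with earlier results of these data known. Differences in log2(FPKM + 0.1) were tested with limma (version 3.58.1, R version 4.3.3), with genotype as the only factor and a mean-variance trend, over all 8 libraries and all genes whose mean reached 0.5 FPKM. Genes were called at an unadjusted two-sided p under 0.05, as in the study, and adjusted p-values (Benjamini-Hochberg) cover all tested genes. Fold changes of low genes are understated on this scale. The study used DESeq2 on counts, which were not used here.

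Named genes were the 6 members, in each companion list the 3 genes with the smallest p and the 2 with the highest mean, and for each member the 3 genes with the steadiest ratio to it. Some genes that this rule names are not reported here. On simulated data of 14990 genes, 77 of 100 genes changed by 1 on the log2 scale and 96 of 100 changed by 2 were called unadjusted (28 and 73 adjusted), and 4.73% of unchanged genes were called. The simulated noise was independent between genes and libraries. It held no library that differed over many genes at once, as WT1 did, so these rates may not hold for the real libraries. FPKM carry no counts. Depth was estimated from the FPKM times kilobases of low genes with 1 annotated transcript, as the best-fitting step between 0.03 and 0.06, the only range searched, and of these values 53.2% to 59.3% lay within 0.1 of a whole step, against 20.0% for evenly spread values. Alternatives were another pseudocount (1), other filters on low values, median-ratio and quantile scaling, no trend, a replicate block, libraries 1 to 3 alone and each library left out. Leaving out WT1 with median-ratio scaling, or with KO1, was added after seeing the data.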

Additional observations from a re-analysis of the deposited data

Results flagged for a closer look

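Among the 25 named genes of the members and companion lists, 50 groups of 4 libraries were checked for a value far from the other 3, of which chance alone sets apart about 1 in 20. In 2 groups 1 library stood apart, and neither belongs to the 6 fibrocyte genes. Foxc1 had an FPKM of 10.5 in WT1, against 22.5 to 24.6 in the other WT libraries. Dio2 had an FPKM of 14.6 in KO1, against 10.1 to 10.3 in the other KO libraries.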

How the results depend on the processing

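Otor, Pou3f4, Tbx18 and Crym kept a negative log2 fold change under every alternative run. The calls of Otor and Crym depended on WT1. Those of Pou3f4 and Tbx18 depended on WT1, on the scaling and, once WT1 was left out, on KO1. Leaving out each library in turn gave 0.07 to 0.29 for Coch, -0.05 to 0.50 for Otos, -0.93 to -0.27 for Otor, -0.32 to -0.13 for Pou3f4, -0.48 to -0.15 for Tbx18 and -0.80 to -0.02 for Crym. It gave 0 to 4 members called, 347 to 2922 genes called in all, and 1 to 6 called companion genes. The lowest overall counts came without KO3 (347) and without KO2 (377), and the highest without WT1. Coch turned to -0.00 with quantile normalization, and Otos turned to -0.10 with libraries 1 to 3 alone and to -0.05 without KO2. Median-ratio scaling gave 2 members called, with -0.34 for Pou3f4 and -0.42 for Tbx18, and quantile normalization gave 1, with -0.33 for Pou3f4. Of all calls, 90.1% were higher in KO as deposited, 52.7% after median-ratio scaling and 40.9% after quantile normalization. With either scaling, and likewise with libraries 1 to 3 alone, 3 companion genes were called. In alternatives chosen after seeing the data, leaving out WT1 with median-ratio scaling gave 4 members and 3254 genes called, with -0.92 for Otor, -0.31 for Pou3f4, -0.47 for Tbx18 and -0.79 for Crym. Leaving out WT1 and KO1 gave 2 members and 2431 genes called, with -0.78 for Otor and -0.58 for Crym. The causes were not tested.

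The deviations of same-numbered libraries correlated by 0.419 for number 1 and 0.21 for number 4, but by -0.24 and -0.17 for numbers 2 and 3, so the numbers were not taken to pair them. With a replicate block, 838 genes and 0 members were called, with log2 fold changes of 0.16 for Coch and -0.54 for Otor. Without a filter on low values 976 genes were called, 3 of them after adjustment. No read counts were used, so that depth is an estimate, and it limits Crym most.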
